A study of Mus musculus with 13 samples.

Results

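The genes described here encode the nuclear subunits of the respiratory chain and of ATP synthase. They were taken by symbol from the deposited table, as every gene whose name begins with Ndufa, Ndufb, Ndufc, Ndufs or Ndufv (complex I), with Sdh (complex II), with Uqcr (complex III), with Cox4, Cox5, Cox6, Cox7 or Cox8 (complex IV) or with Atp5 (complex V). Assembly factors named Ndufaf or Sdhaf were not taken, nor were 7 names with the -ps mark of pseudogenes, which were listed at no more than 8.87 TPM in any library. The rule gave 84 of the 53465 genes in the table, all annotated as protein coding, with 38 in complex I, 4 in complex II, 8 in complex III, 18 in complex IV and 16 in complex V. A few symbols do not match present knowledge of the complexes. Ndufa4 protein is now placed in complex IV, Cox7a2l helps to assemble supercomplexes, and Atp5s is not a structural subunit. They were kept where the symbol put them. Cyc1, a complex III subunit, falls outside the symbol rule and is counted with the neighboring genes.

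RNA-seq of whole tissue was made from 3 ovaries of untreated wild-type (WT) C57BL/6 female mice and from 10 untreated tumors named MP, for MYC overexpression with loss of p53. The tumors are EPO-GEMMs, autochthonous tumors that follow electroporation of plasmids into the ovary of WT C57BL/6 females aged 8 to 12 wk, here a Cas9 vector with an sgRNA against Trp53 and a Sleeping Beauty transposon vector overexpressing MYC. The electroporation does not select a cell type within the ovary and the neighboring fallopian tube, and tumors were taken at end point. The ages of the mice when tissue was taken are not given in the sources used here. Nothing in the labels describes a plasmid control, so the WT ovaries differ from the tumors in electroporation as well as in genotype.

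The respiratory chain passes electrons from NADH through complex I, or from succinate through complex II, to ubiquinone, then through complex III and cytochrome c to complex IV, which reduces oxygen. Complexes I, III and IV pump protons across the inner mitochondrial membrane, and complex V, the ATP synthase, lets them return and makes ATP. Complex II is built wholly from nuclear genes, whereas the other complexes also hold subunits made from mitochondrial DNA. Several complex IV subunits and the ATP synthase c subunit are encoded by more than 1 nuclear gene, with copies that are known for use in particular tissues such as muscle, lung or testis.

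Depth, worked back from the TPM steps, was 31445004 to 64013840 reads per WT ovary and 3892690 to 19906507 reads per MP tumor, of which the 84 genes held between 50632 and 769055 reads per library. The library names in the labels carry 1 of 3 shared numbers, which were taken as batches although the labels do not say what they mark. Batch 1 held all 3 WT ovaries and MP tumors 1 to 3, and batches 2 and 3 held only tumors, so condition and batch can be told apart within batch 1 alone. MP tumor 2 stood apart, with 55.1% of its TPM in 10 genes, against at most 20.6% in any other library. Trp53 was at 80.7 to 85.4 TPM in the ovaries and between 4.30 and 186.8 TPM in the tumors, below the ovaries in 9 of 10 and above them in MP tumor 10, and the mouse Myc gene was at 126 to 129 TPM and at 7.09 to 419 TPM. Small indels need not change the amount of RNA and the transposon's MYC need not be counted as mouse Myc, so neither gene checks the labels. Steroid-making and granulosa cell markers summed to between 28249 and 34120 TPM in the ovaries and to between 11.9 and 2269 TPM in the tumors, and 9 of 10 fell. All 8 oocyte markers fell, as did 2 of 4 endothelial markers (summed level 235 to 249 TPM in the ovaries and 4.02 to 176.7 TPM in the tumors) and 3 of 6 epithelial markers (237 to 267 TPM and 5.67 to 1152 TPM), and 2 of 5 red cell markers rose (225.6 to 432 TPM and 451 to 6177 TPM). Fewer cells of a type and less RNA per cell cannot be told apart in bulk tissue, and the part of these marker levels in the results that follow was not tested.

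Few subunit genes passed the test between MP tumors and WT ovaries, and as a set they sat higher than the median gene. Of the 84 genes, 82 reached 1 TPM in at least 3 libraries and were tested with limma on log2(TPM + 1) together with all 17277 such genes. The 2 that were not tested are Cox8c, listed at 0 in every library, and Cox7b2, listed at no more than 0.379 TPM. Atp5o, a peripheral stalk subunit of ATP synthase, rose, and Cox4i2, the lung-type form of complex IV subunit 4, fell. That is 1 of 82 genes higher, where 2.51% of all tested genes were higher, and 1 of 82 lower, where 14.3% of all tested genes were lower. The median log2 fold change of the subunit genes was 0.23, with 57 of 82 above 0, beside -0.58 for all tested genes. Leaving out any 1 of the 3 WT ovaries ended both calls, and fewer of all genes passed as well, with 0.781%, 0.886% and 0.544% higher and 6.70%, 6.92% and 6.86% lower without WT ovary 1, 2 and 3. Leaving out MP tumor 2 gave 3 genes higher and 1 lower, beside 3.68% higher and 13.9% lower of all genes.

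**Figure D1:**
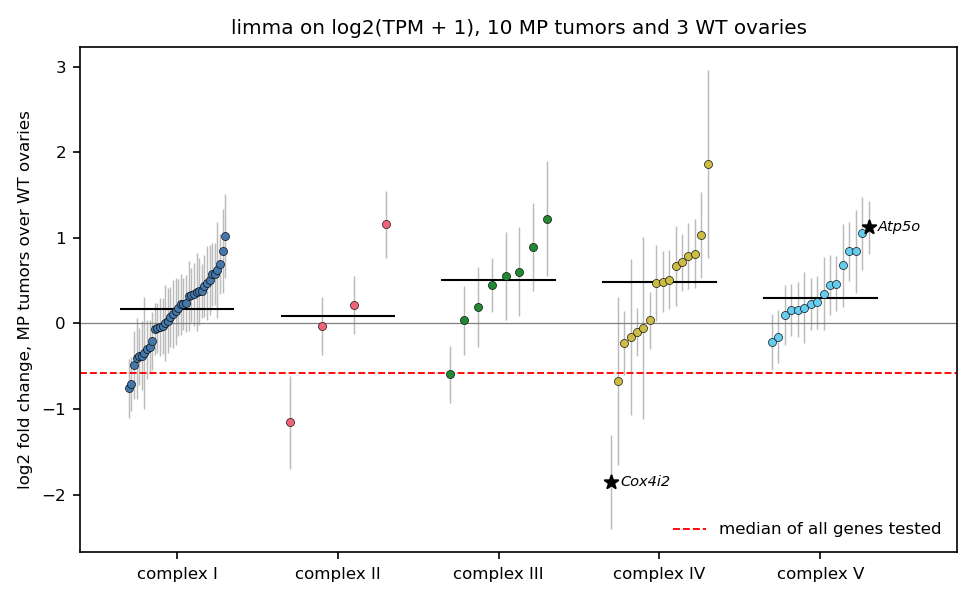
Log2 fold change of MP tumors over WT ovaries on log2(TPM + 1) (vertical axis) for the 82 tested subunit genes, grouped by complex; each point is a gene, grey lines are its standard error, black bars are the complex medians and stars mark genes past the threshold. Complex medians run from 0.09 in complex II to 0.50 in complex III, all above the dashed median of all tested genes at -0.58.

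TPM sums to a fixed total, so the direction of a gene can depend on how libraries are scaled. Median-of-ratios scaling moved the median of all genes from -0.58 to -0.02 and that of the subunit genes from 0.23 to 0.94, with 79 of 82 above 0. Under it 3 subunit genes were higher and 0 lower, beside 7.37% and 11.0% of all genes. The subunit median lay 0.81 above the median of all genes as deposited and 0.97 above it after this scaling, but the gap was 0.31 after quantile normalization, 0.30 with no filter on low values and 1.58 within batch 1. Counts of calls also moved with the setting, for all genes as well. Quantile normalization gave 6 subunit genes higher and 1 lower, beside 11.0% and 12.1% of all genes. Voom on reads worked back from TPM gave 12 and 0, beside 15.8% and 17.6%. Batch as a covariate gave 20 and 4, beside 5.17% and 49.4%, and the replicate number as a block gave 14 and 3, beside 6.29% and 56.7%. Fold changes in both settings rest on batch 1, the only batch with WT ovaries, and equal those within batch 1. A pseudocount of 0.1 gave 1 and 0, beside 2.44% and 10.1%.

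Gene length moved with this difference. The subunit genes are short, with a median length of 1522.5 bases against 3516 bases for all tested genes, and in the tumors short genes were higher than long ones. The median fold change over all genes fell from 0.10 below 1000 bases to -0.87 at 4000 bases and over, whereas the subunit genes in the same length classes had medians of 0.08 (23 genes) and 0.23 (11 genes). Between 1000 and 2000 bases, 28 subunit genes had a median of 0.44 beside -0.28 for all genes. With each library's trend with length removed, the subunit median was 0.71 beside 0.04 for all genes, and 8 subunit genes were higher and 1 lower, beside 10.4% and 10.3% of all genes.

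The tumors differed widely among themselves. In tumors 1, 3 and 7 the subunit median lay 1.97, 1.80 and 1.18 above the median of all genes, relative to the WT ovaries, and in tumors 5, 9 and 10 the 2 medians were within 0.03 of each other. The first trio were also libraries in which deviation from the ovaries ran against gene length, with a Spearman rho over all genes of -0.40, -0.38 and -0.23, while tumors 5, 9 and 10 had -0.04, 0.00 and 0.00. Tumors 2 and 4, with a rho of -0.39 and -0.32, had differences of 0.96 and 0.72, and tumors 6 and 8, with weaker trends of -0.14 and -0.19, had 0.75 and 0.77. After removal of the length trend the difference was 1.52, 1.43 and 0.89 in tumors 1, 3 and 7, between 0.43 and 0.69 in tumors 2, 4, 6 and 8, and between -0.05 and 0.01 in tumors 5, 9 and 10. The part of RNA quality or library preparation in the length trend was not tested. Summed TPM of the 84 genes was 24340 to 25672 in the ovaries and ran from 23056 in MP tumor 2 to 59588 in MP tumor 3. Among the 82 tested genes, tumor 1 was the highest tumor for 32 and tumor 3 for 27, and tumor 2 was the lowest for 41. The median coefficient of variation of the subunit genes was 5.20% over the ovaries and 39.9% over the tumors, beside 13.4% and 76.1% for all tested genes.

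**Figure D2:**
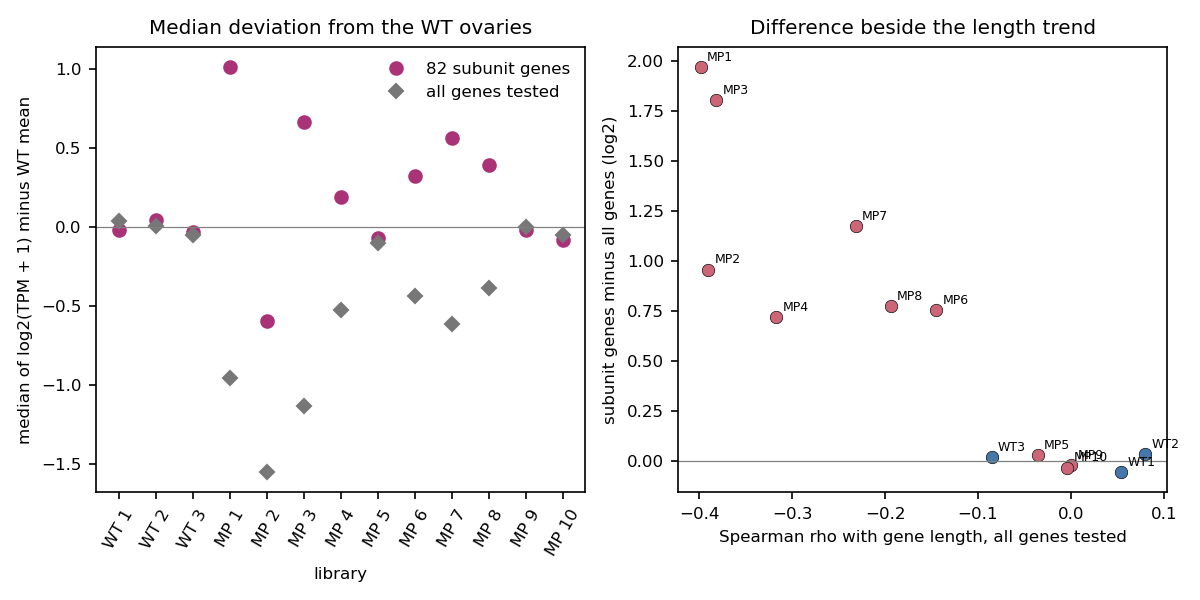
Left, median of log2(TPM + 1) minus the WT mean in each library (horizontal axis) for the 82 subunit genes (circles) and all tested genes (diamonds). Right, the gap between the 2 medians against the Spearman rho of the deviation with gene length over all tested genes, 1 point per library; MP1 and MP3 have gaps of 1.97 and 1.80 with rho near -0.4, and MP5, MP9 and MP10 lie near 0 on both axes.

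Batch 1 alone gave more calls. In it 18 subunit genes were higher and 3 lower (Cox4i2, Cox6b2 and Sdha), where 6.44% of all genes were higher and 57.3% lower, with 7 of the higher genes in complex I, 1 in complex II, 4 in complex III, 3 in complex IV and 3 in complex V. The median was 0.38 beside -1.20 for all genes. Tumors 1 to 3 are the libraries with the steepest length trends, and whether their profile differs from that of the other 7 tumors was not tested.

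**Figure D3:**
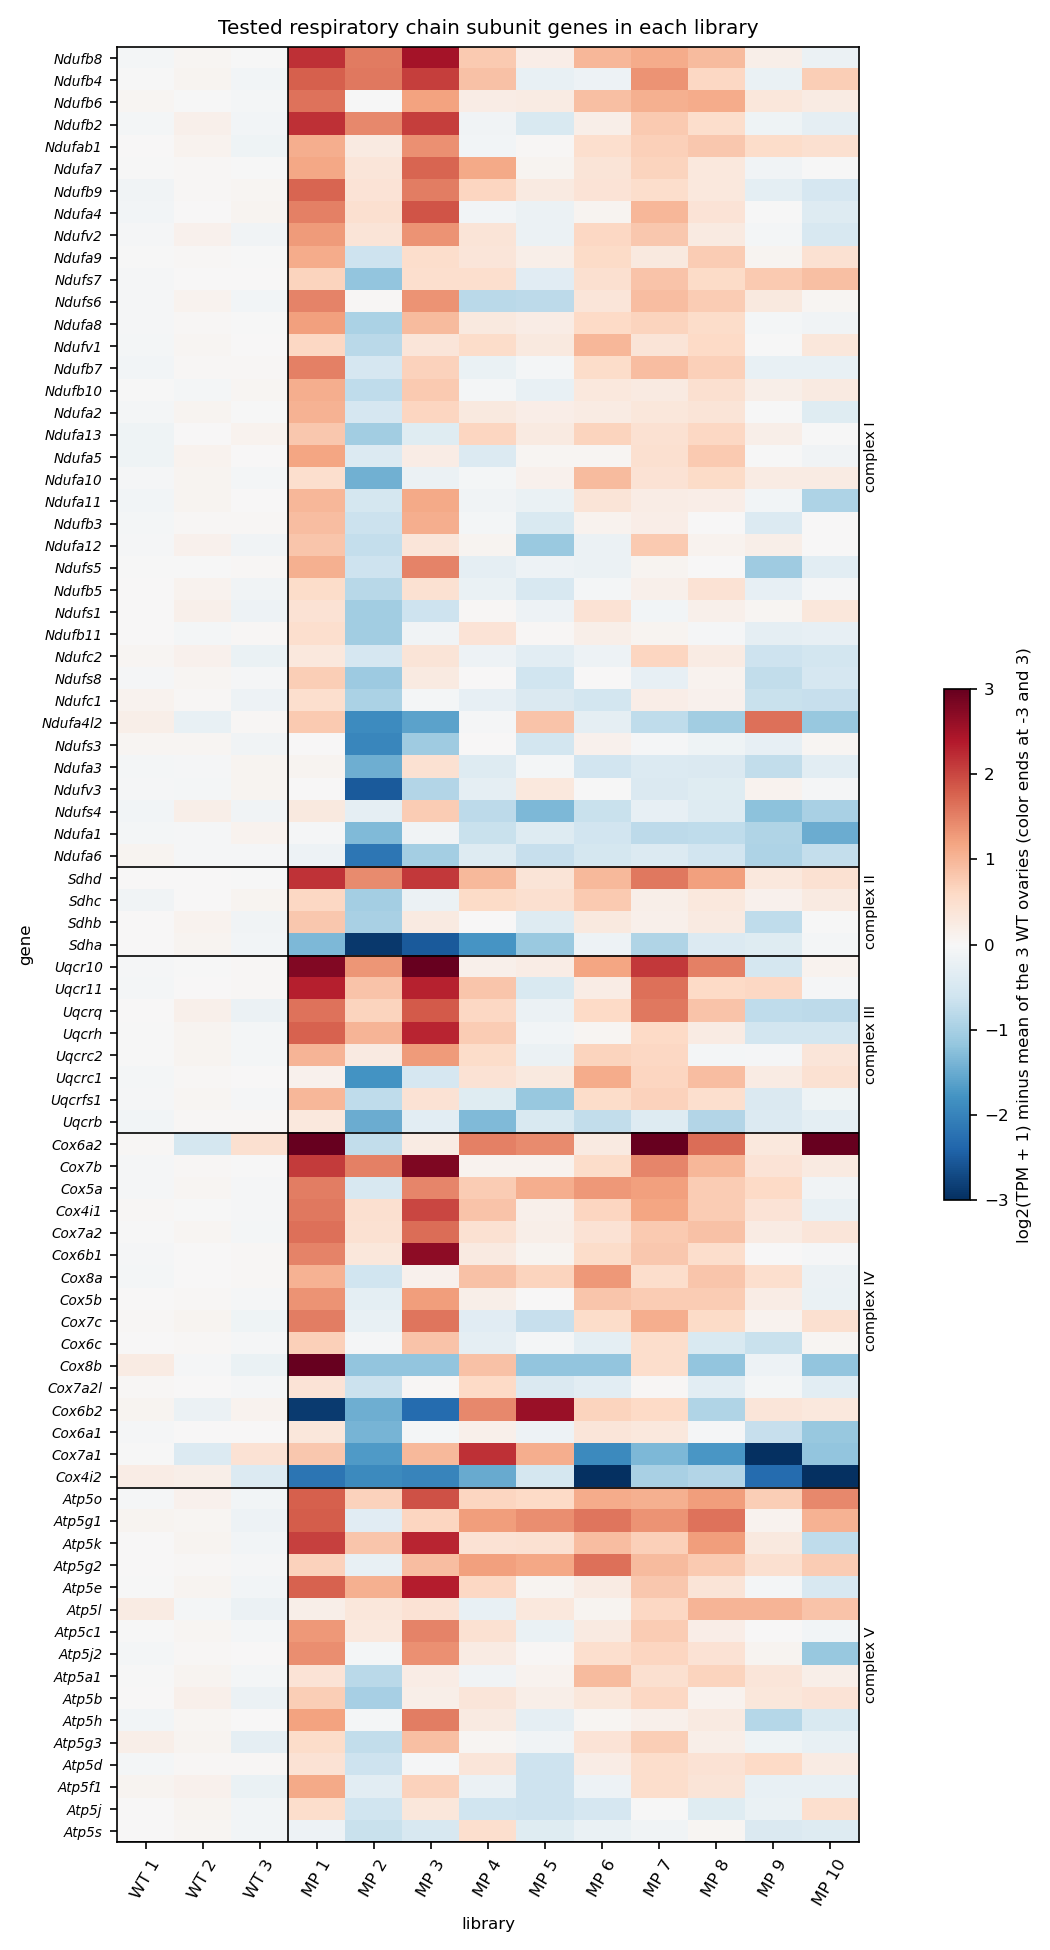
Heat map of 81 of the 82 tested subunit genes (rows, grouped by complex and sorted by fold change) in 3 WT ovaries and 10 MP tumors (columns); color is log2(TPM + 1) minus the mean of the WT ovaries, ending at -3 and 3. MP1 and MP3 are red for most genes, MP2 is the lowest of the 10 tumors for 41 of all 82 genes, and Sdhd, Atp5o, Cox7a2 and Cox7b are above the ovaries in all 10 tumors.

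Non-overlapping levels gave a similar small set. Sdhd, Cox7a2, Cox7b and Atp5o were above every ovary in all 10 tumors, 4 of 82 genes where 3.02% of all tested genes were so, and Cox4i2 and Ndufa6 were below every ovary in all 10, 2 of 82 where 16.4% of all were so. These counts refer to TPM as deposited. After median-of-ratios scaling the fold change of Ndufa6 was -0.04 and that of Cox4i2 was -1.16, whereas Ndufa6 passed as lower after quantile normalization (-0.92, limma adjusted p = 0.0075) and with batch as a covariate (-1.12, limma adjusted p = 0.032) but not at the same fold change within batch 1 (limma adjusted p = 0.094).

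Complex I, the NADH dehydrogenase, held the largest share of subunit RNA in the ovaries and a smaller one in every tumor. Of the summed TPM of the 84 genes, complex I made up 34.3% ± 0.38 in the 3 WT ovaries (mean ± SD) and 28.1% ± 2.56 in the 10 MP tumors, and all 10 tumors were below all 3 ovaries. Complex III and complex IV took more on average, at 12.8% ± 0.20 against 16.0% ± 4.27 and at 24.3% ± 0.55 against 26.7% ± 1.87. For complex III, 7 tumors were above and 2 below the ovaries, and MP tumors 1 to 3 reached 20.3% to 23.3%. For complex IV, 9 tumors were above. Complex II (4.84% ± 0.03 and 5.11% ± 0.64) and complex V (23.7% ± 1.04 and 24.0% ± 2.42) had overlapping shares. These shares do not depend on the scaling of a library, and no test was made of them. A smaller share did not mean less complex I RNA in every tumor. Summed TPM of complex I was 8527 ± 184 (SD) in the ovaries and 9546 ± 2984 in the tumors, below every ovary only in MP tumors 2, 5, 9 and 10. Mean summed TPM went from 3195 to 5925 in complex III and from 6052 to 9326 in complex IV.

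**Figure D4:**
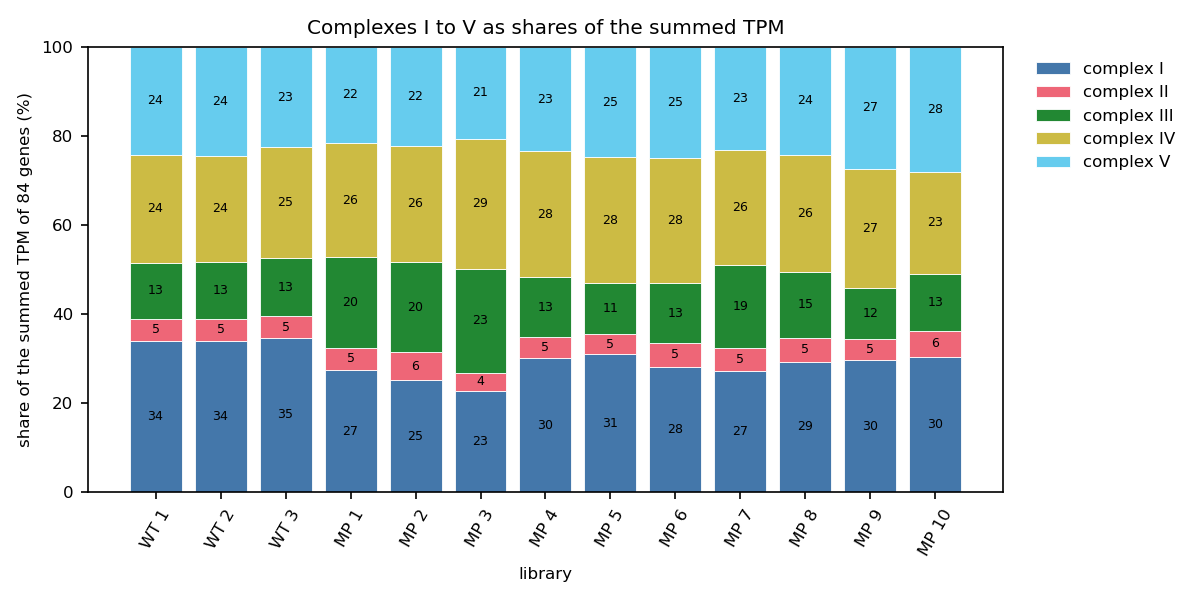
Share of the summed TPM of the 84 subunit genes taken by complexes I to V (vertical axis, percent) in each library (horizontal axis). Complex I is at 34.0% to 34.7% in the 3 ovaries and between 22.8% and 31.0% in the tumors, and complex III exceeds 18% in MP1, MP2, MP3 and MP7.

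No complex I gene passed the limma test, and the 38 genes had a median log2 fold change of 0.16, with 24 above 0. At an unadjusted p under 0.05, 0 were higher and 2 lower, beside 5.63% and 27.4% of all genes, and voom called 4 higher and 0 lower, beside 15.8% and 17.6%. Ndufa6 and Ndufa1, accessory subunits, had the lowest values. Ndufa6 was at 917, 838 and 837 TPM in the ovaries and at 190.3, 556 and 774 TPM in the lowest, median and highest tumor, with no overlap (log2 fold change -0.76 ± 0.34 SE, limma adjusted p = 0.139). Ndufa1 was at 426, 434 and 483 TPM in the ovaries, and at 159.6 to 433 TPM (median 270.2) in the tumors, 9 of which were below the ovaries (-0.71 ± 0.31, limma adjusted p = 0.129), and after median-of-ratios scaling it was at 0.013. On the other side stood Ndufb8, at 80.6, 88.1 and 83.2 TPM in the ovaries and at 73.6 to 481 TPM (median 165) in the tumors, 9 of which were higher (1.03 ± 0.49, limma adjusted p = 0.158). In batch 1 Ndufb8 rose by 2.09 (limma adjusted p = 0.0014). It shares 134 bases of exon on the same strand with Gm20538, which the counting could split. The catalytic and cofactor-binding subunits Ndufs1 and Ndufs7 (iron-sulfur subunits) and Ndufv1 (which binds FMN) had log2 fold changes between -0.04 for Ndufs1 and 0.37 for Ndufs7 as deposited. By voom Ndufs7 (1.13, limma adjusted p = 0.029) and Ndufv1 (1.06, limma adjusted p = 0.046) passed, and Ndufs1 (0.68, limma adjusted p = 0.121) did not. Ndufv1 also passed with the length trend removed (0.85, limma adjusted p = 0.046). Ndufa4l2, a relative of Ndufa4 that responds to low oxygen in many cells, made up 3.80% to 5.37% of their sum in the ovaries and 0.38% to 13.1% in the tumors (exact permutation adjusted p = 0.965), highest in MP tumor 9.

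Complex II, succinate dehydrogenase, joins the citrate cycle to the chain, and its 4 genes split. No complex II gene passed the limma test, with 1 higher and 1 lower at an unadjusted p under 0.05 (5.63% and 27.4% of all genes), and voom called 1 higher (Sdhc, 15.8% of all genes). Sdhd, a membrane anchor (GRCm38 chr9:50596357-50603812), was at 451, 454 and 445 TPM in the ovaries and at 556, 967 and 2019 TPM in the lowest, median and highest tumor, above every ovary in all 10 (1.16 ± 0.39, limma adjusted p = 0.054). Sdha, the flavoprotein that oxidizes succinate (chr13:74322254-74350280), was at 383, 400.3 and 360.2 TPM in the ovaries and at 50.5 to 364 TPM (median 189.5) in the tumors, of which 9 were below every ovary and MP tumor 10 at 364 TPM was not (-1.15 ± 0.54, limma adjusted p = 0.151). The other 2 genes did not pass, with Sdhb at -0.03 ± 0.34 and Sdhc at 0.22 ± 0.34. In batch 1 both outer genes passed, Sdhd at 1.90 (limma adjusted p = 0.0017) and Sdha at -2.25 (limma adjusted p = 0.0031). There 6.44% of all genes were higher and 57.3% lower. After median-of-ratios scaling neither passed, with Sdhd at 1.88 (limma adjusted p = 0.082) and Sdha at -0.44 (limma adjusted p = 0.355). With the length trend removed Sdhd passed at 1.40 (limma adjusted p = 0.040) and Sdhc at 0.83 (limma adjusted p = 0.044), and Sdha did not at -0.45 (limma adjusted p = 0.364). Sdha spans 4126 bases of exon and Sdhd 1231, so they differ in length as well.

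The ratio of Sdhd to Sdha TPM within a library does not move with its scaling. It was chosen after the values were seen and is a description. It was 1.13 to 1.24 in the ovaries and 1.70 to 29.7 in the tumors (median 5.20). MP tumors 1, 2 and 3 had 13.6, 24.0 and 29.7, and MP tumors 9 and 10 had 1.89 and 1.70. The 4 proteins of complex II are assembled in equal number, and protein was not measured.

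Promoter sequence of these 2 genes was read from RefSeq (GRCm38.p6) because they went opposite ways in 9 of 10 tumors. Both carry GCGCANGCG, the recognition sequence of NRF1, a factor known to bind promoters of respiratory chain genes, within 250 bases before the start site. The matches are shown in capitals with 10 bases on each side, 5′ to 3′ on the strand of the gene. Positions count bases from the first base of the match to the start site. GENCODE M21 starts Sdha farther upstream, so the match nearest to the RefSeq start lies within its annotated gene.
Sdha, 98 bases before the start, chr13:74350320-74350348, minus strand: cgtttacaggGCGCAGGCGcaccaccact
Sdha, 55 bases before the start, chr13:74350277-74350305, minus strand: ggggcgtgttGCGCAGGCGcagaatcttc
Sdha, 10 bases before the start, chr13:74350232-74350260, minus strand: gcgactcggtGCGCAAGCGcagtctgtcg
Sdhd, 79 bases before the start, chr9:50603910-50603938, minus strand: tcgctggggtGCGCACGCGcggtggcagc

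Among the 69 subunit genes matched to a RefSeq entry (74 promoters), 15 promoters (20.3%) held this sequence on either strand, beside 5.16% of all 32851 promoters of the table. The 14 genes with a match had a median log2 fold change of 0.35 and the 55 without had 0.23. The other sequences searched on both strands differed from the share in all promoters by fewer percentage points. That of ERRα rested on 1 promoter of a subunit gene. CCGGAAGT (ETS factors such as GABPA) stood in 4.05% against 2.88%, CACGTG (the E-box, which MYC with MAX and other factors bind) in 9.46% against 6.02%, AAGATGGC (YY1) in 1.35% against 1.56%, TCAAGGTCA (ERRα) in 1.35% against 0.387% and GGGCGG (SP1) in 35.1% against 32.7%. A match is a description of these letters and not a site.

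Complex III, the cytochrome bc1 complex, had a median of 0.50 over 8 genes with 7 above 0, beside 0.48 in complex IV, and the order of these 2 turned after quantile normalization and without MP tumor 2, 3 or 4. No gene passed the limma test, 0 were past an unadjusted p of 0.05 in either direction (5.63% and 27.4% of all genes), and voom called 1 higher (Uqcrc1, 15.8% of all genes). Uqcr10, a small subunit, was at 586, 595 and 617 TPM in the ovaries and at 413, 1428 and 6194 TPM in the lowest, median and highest tumor, 9 of which were above every ovary (1.22 ± 0.67, limma adjusted p = 0.212). Uqcr11, another small subunit, was at 457 to 490.5 TPM in the ovaries and at 348 to 2398 TPM (median 794) in the tumors, 8 of which were above (0.89 ± 0.51, limma adjusted p = 0.232). MP tumors 1 and 3 held the highest values of both genes. In batch 1 Uqcr10 rose by 2.49 (limma adjusted p = 0.0045) and Uqcr11 by 1.83 (limma adjusted p = 0.0093), and Uqcrh and Uqcrq passed there too. Uqcrb, which lies near the quinone site, went the other way, at 436 to 472 TPM in the ovaries and 163 to 573 TPM (median 339.8) in the tumors, 9 of which were below (-0.60 ± 0.34, limma adjusted p = 0.224). After median-of-ratios scaling Uqcrb was at 0.12. The Rieske iron-sulfur protein Uqcrfs1 (0.03) and the core subunit Uqcrc1 (0.19) had values close to 0 as deposited. They were at 0.75 and 0.91 after median-of-ratios scaling and at 0.22 and -0.72 within batch 1.

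**Figure D5:**
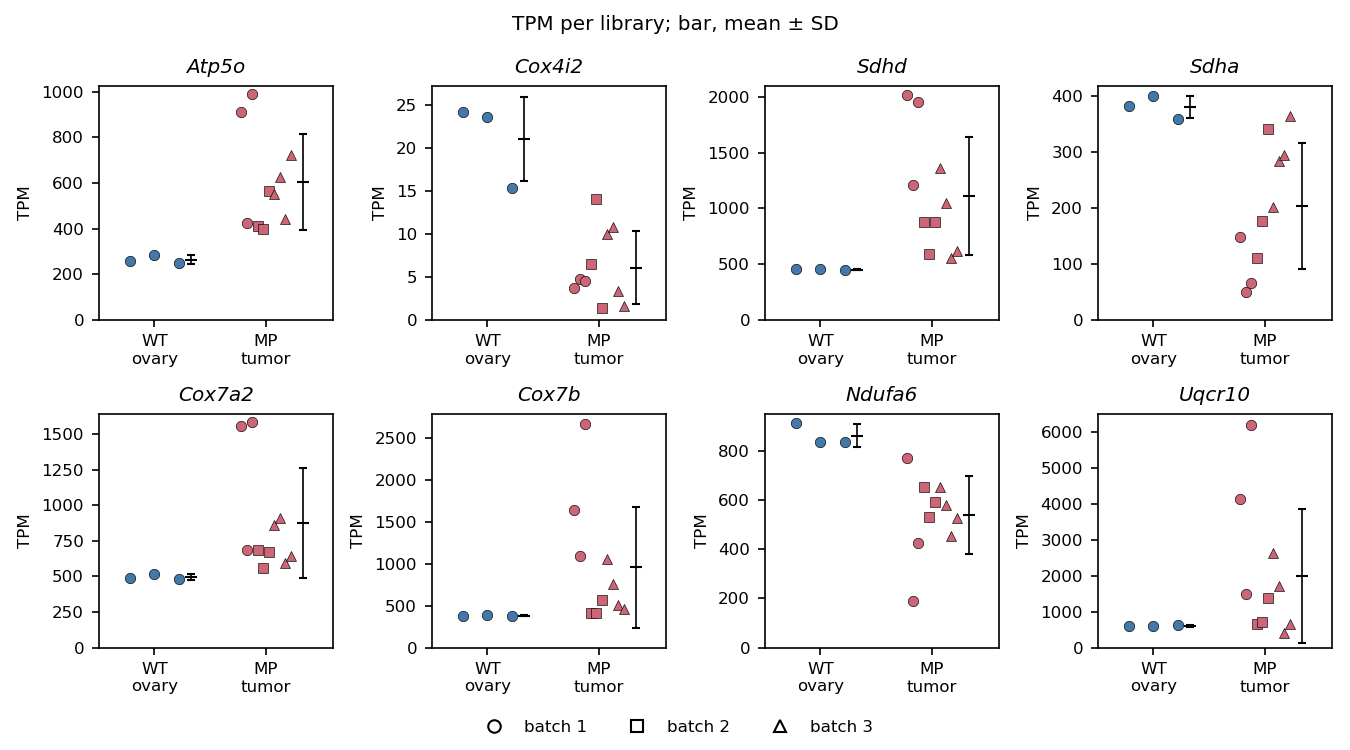
TPM (vertical axis, from 0) of 8 subunit genes in each of 3 WT ovaries and 10 MP tumors; points are libraries, marker shape gives the batch, and bars are mean ± SD. Sdhd, Atp5o, Cox7a2 and Cox7b lie above the ovaries in all 10 tumors, Cox4i2 and Ndufa6 lie below in all 10, and Sdha lies below in 9.

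Complex IV, cytochrome c oxidase, held the gene that fell. Cox4i2 (GRCm38 chr2:152754173-152765037) was at 24.2, 23.6 and 15.4 TPM in the ovaries and at 1.35, 4.64 and 14.0 TPM in the lowest, median and highest tumor, without overlap (-1.85 ± 0.55, limma adjusted p = 0.033), and in batch 1 it fell by 2.03 (limma adjusted p = 0.00048). It did not pass after median-of-ratios scaling (-1.16, limma adjusted p = 0.185). Its share of Cox4i1 plus Cox4i2, which no scaling moves, was 2.70% ± 0.58 (SD, n = 3) in the ovaries and 0.498% ± 0.457 (SD, n = 10) in the tumors, lower in 10 of 10. The exact permutation test over all 286 choices of 3 libraries gave 0.0035, the smallest p it can give, and 0.035 after Benjamini-Hochberg adjustment over 10 shares. Cox4i2 is known in lung and in pericytes. Pericyte markers summed to between 236 and 299.5 TPM in the ovaries and to between 13.6 and 310 TPM in the tumors, with 2 of 6 lower. The highest sum, 310 TPM in MP tumor 9, was mostly Kcnj8 (170.3 TPM, against a mean of 17.7 TPM in the ovaries), while the other 5 pericyte markers in that tumor were below their ovary means. Smooth muscle markers summed to between 1449 and 1694 TPM in the ovaries and to between 47.1 and 1266 TPM in the tumors, with 4 of 5 lower. The tumor with the highest share of Cox4i2, MP tumor 5 at 1.63%, had 1186 TPM of Acta2 against 1136 to 1327 TPM in the ovaries. Its Myh11 (6.79 TPM), Cnn1 (15.02 TPM) and Actg2 (23.9 TPM) were below their ovary means of 147, 38.3 and 147 TPM and were higher in MP tumor 10. Des, the remaining smooth muscle marker, was at 34.3 TPM in MP tumor 5, above its ovary mean of 21.7 TPM. MP tumor 5 also had the highest endothelial sum of the tumors, 176.7 TPM. The part of these markers in the fall of Cox4i2 was not tested.

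Cox7a2 and Cox7b, small structural subunits, were above every ovary in all 10 tumors and did not pass the test over all libraries. Cox7a2 was at 492, 520.0 and 481 TPM in the ovaries and at 562 to 1589 TPM (median 683) in the tumors (0.71 ± 0.34, limma adjusted p = 0.151). Cox7b was at 372, 391 and 378 TPM in the ovaries and at 409.6 to 2662 TPM (median 659) in the tumors (1.03 ± 0.50, limma adjusted p = 0.165). Cox4i1, the common form of subunit 4, was at 743 to 777 TPM and at 648 to 3047 TPM (0.79, limma adjusted p = 0.166). In batch 1 these 3 genes passed, Cox7a2 at 1.26 (limma adjusted p = 0.029), Cox7b at 2.14 (limma adjusted p = 0.0023) and Cox4i1 at 1.36 (limma adjusted p = 0.028).

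The other tissue forms of complex IV varied widely among tumors. The share of Cox7a1 was below every ovary in 8 tumors and above in 2. That of Cox8b, a gene at 0.998 to 1.68 TPM in the ovaries, was below in 7 and above in 1. For Cox6b2 the share was below in 5 and above in 5. Cox6a2, the heart and skeletal muscle form, was 0.038% to 0.154% of Cox6a1 plus Cox6a2 in the ovaries and reached 3.89%, 4.09% and 5.53% in MP tumors 1, 7 and 10, against at most 0.472% in the other 7. Of all 10 tumors, 7 were above every ovary and 0 below. Striated muscle markers summed to 1.41 to 2.51 TPM in the ovaries and to 774 TPM in MP tumor 1, where Ckm (512 TPM), Acta1 (149.6 TPM) and Tnnt3 (92.6 TPM) were all high. In MP tumors 7 and 10 the sums of 320.3 and 81.2 TPM were mostly Ckm (319.7 and 73.5 TPM), with Acta1 at 0 and 1.26 TPM. MP tumor 8 had Acta1 at 48.2 TPM and Tnnt3 at 26.5 TPM with a Cox6a2 share of 0.472%, and MP tumor 6 had Ckm at 89.7 TPM with a share of 0.097%. Their part was not tested. Cox8b, another muscle form, was at 90.0 TPM in MP tumor 1 and at no more than 3.18 TPM elsewhere. Cox7a1, also a muscle and fat form, ran from 2.11 TPM in MP tumor 9 to 209.9 TPM in MP tumor 4, around 33.5 to 61.0 TPM in the ovaries. The next highest was MP tumor 5 at 97.5 TPM. Among fat markers, Cidea was highest in MP tumors 5 and 4 (48.9 and 11.8 TPM) and Ucp1 in MP tumor 4 (5.25 TPM), while the fat sum was highest in MP tumor 7 (71.7 TPM), and their part was not tested. Cox6b2, the testis form, was 2.03% to 2.53% of Cox6b1 plus Cox6b2 in the ovaries and from 0.060% in MP tumor 3 to 12.3% in MP tumor 5. MP tumors 1 to 3, at 0.078%, 0.614% and 0.060%, were all below the ovaries. In batch 1 Cox6b2 passed as lower (-2.22, limma adjusted p = 0.0015), where 57.3% of all genes were lower. None of these 4 shares passed the exact permutation test, with adjusted p from 0.251 to 0.965. Cox7b2 and Cox8c, which were not tested by limma, were at or near 0, and Cox7b2 rested on 2, 0 and 4 reads in the ovaries, 1 read in MP tumor 2 and 0 in the other tumors, where 1 read is worth 0.210 to 1.46 TPM, so that a difference was not detectable at this depth.

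Complex V, ATP synthase, held the gene that rose. Atp5o was at 256, 286 and 247 TPM in the ovaries and at 396, 560.1 and 988 TPM in the lowest, median and highest tumor, above every ovary in all 10 (1.12 ± 0.31, limma adjusted p = 0.024). It passed in batch 1 (1.46, limma adjusted p = 0.015), after median-of-ratios scaling (1.84, limma adjusted p = 0.031) and with the length trend removed (1.61, limma adjusted p = 0.0094). The annotation overlaps Atp5o with a second record of that name over 243 bases on the same strand and with antisense RNAs, and whether the counting used strand is not given in the sources used here. The median over 16 genes was 0.30, with 14 above 0. Neither catalytic subunit passed, with Atp5a1 (alpha subunit) at 1062 to 1174 TPM in the ovaries and 635 to 2154 TPM in the tumors (0.25, limma adjusted p = 0.579), and Atp5b (beta subunit) at 1035 to 1295 TPM and 586 to 1941 TPM (0.23, limma adjusted p = 0.607). Atp5l, listed at 0.533 to 2.64 TPM in all libraries, is uncertain, since the other structural subunits of the complex lie far above it. It is nevertheless among the genes above 0. It also counts among those called higher with the length trend removed (1.30, limma adjusted p = 0.034), after quantile normalization (1.21, limma adjusted p = 0.030) and by voom (1.65, limma adjusted p = 0.024).

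The ring of c subunits is made from 3 genes that encode the same mature protein. Atp5g3 supplied most of their RNA, 89.4% ± 1.04 (SD, n = 3) in the ovaries and 82.4% ± 4.50 (SD, n = 10) in the tumors, lower in 9 of 10 (exact permutation p = 0.028, adjusted p = 0.105). The share of Atp5g1 was 4.59% ± 0.29 and 8.37% ± 2.70, higher in 9 of 10, and that of Atp5g2 was 6.00% ± 0.75 and 9.19% ± 2.53, higher in 7 of 10 (exact permutation p = 0.052 and adjusted p = 0.105 for both). Atp5g1 was at 38.1, 37.9 and 32.7 TPM in the ovaries and at 28.3 to 130.1 TPM (median 90.7) in the tumors (1.05 ± 0.43, limma adjusted p = 0.101). Atp5g2 was at 47.7, 48.0 and 45.6 TPM and at 40.1 to 149.7 TPM (median 86.6) (0.84 ± 0.34, limma adjusted p = 0.101). MP tumor 2 was the only tumor below the ovaries in both genes. Without it, Atp5g1 (1.21, limma adjusted p = 0.025) and Atp5g2 (0.96, limma adjusted p = 0.022) passed, as they did after median-of-ratios scaling (1.75 and 1.55, limma adjusted p = 0.013 and 0.011). In batch 1 they did not, at 0.71 and 0.46 (limma adjusted p = 0.277 and 0.311). Nor did they with batch as a covariate, which gives the same fold changes (limma adjusted p = 0.237 and 0.256). Atp5g3 was at 588 to 795 TPM and at 424 to 1322 TPM (0.16, limma adjusted p = 0.737).

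The start regions of the 3 c subunit genes differ, and matches within 250 bases, other than those of SP1, are shown in the same way. Only Atp5g2 held the NRF1 sequence among them, with a match on each strand that overlap by all but 1 base, of which the match on the strand of the gene is shown. GENCODE M21 starts Atp5g2 farther upstream, so this match too lies within the annotated gene.
Atp5g1, E-box, 44 bases before the start, chr11:96075660-96075685, minus strand: ggactccgaaCACGTGggtgggggag
Atp5g2, NRF1, 42 bases before the start, chr15:102671071-102671099, minus strand: ggctccggccGCGCATGCGcagagccttc
Atp5g3, ERRα on the other strand, 52 bases before the start, chr2:73911360-73911388, minus strand: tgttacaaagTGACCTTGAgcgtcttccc
Atp5g3, E-box, 238 bases before the start, chr2:73911549-73911574, minus strand: ccctgcctggCACGTGcaaggagcga

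Few neighboring genes of the pathway passed the test. They were taken from lists, which were chosen with earlier results of these data known. Of 41 tested assembly factors, 1 was higher and 2 were lower, beside the 2.51% and 14.3% of all genes, with a median of 0.09 as deposited and 0.80 after median-of-ratios scaling. Ndufaf6, a complex I factor, rose from 19.4 ± 4.88 TPM (SD, n = 3) to a tumor median of 108 TPM (2.21 ± 0.49, limma adjusted p = 0.0068), Ndufaf3 fell from 39.7 ± 0.46 to 8.94 TPM (limma adjusted p = 0.0052), and Ttc19, a complex III factor, fell from 26.5 ± 3.21 to 11.5 TPM (-1.20 ± 0.39, limma adjusted p = 0.045). None of 6 electron carriers and related genes, 13 regulators or 14 citrate cycle genes passed, with medians of 0.18, 0.33 and 0.02. These were 0.89, 0.99 and 0.74 after median-of-ratios scaling and 0.58, -0.63 and -0.25 within batch 1. At an unadjusted p under 0.05, limma gave 1 higher and 0 lower, 0 higher and 1 lower, and 1 higher and 2 lower in these 3 lists, beside 5.63% and 27.4% of all genes. Cyc1, the complex III subunit outside the symbol rule, was at 432.5 to 527.0 TPM in the ovaries and at 548 to 1363 TPM in the tumors. Its levels did not overlap, and it did not pass (0.76 ± 0.32, limma adjusted p = 0.108). Among regulators, the coactivator Ppargc1a was at 1.50 TPM in the ovaries and at a median of 0.272 TPM in the tumors (-0.86, limma adjusted p = 0.061). Of 10 outer membrane and import genes, 1 was higher, Timm50 of the inner membrane translocase (1.44, limma adjusted p = 0.012), 5 were higher and 0 lower at an unadjusted p under 0.05, and their median was 0.79 as deposited and 1.50 after median-of-ratios scaling.

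The subunits made from mitochondrial DNA were lower in the tumors where they passed the test. Of 13 genes, 6 were listed at 0 in every library and were not tested, and of the other 7, mt-Nd2, mt-Nd4 (complex I) and mt-Co1 (complex IV) fell, where 14.3% of all genes were lower, and all 7 were lower at an unadjusted p under 0.05, where 27.4% of all genes were, with a median over the 7 of -1.71 as deposited, -0.99 after median-of-ratios scaling and -3.35 within batch 1. Their summed TPM was 61719 to 68386 in the ovaries and 7243 to 45140 in the tumors, lowest in MP tumors 1, 3 and 2 at 7243, 8773 and 10372 TPM. In MP tumors 1 and 3 the summed TPM of the 84 nuclear genes was the highest of all libraries, at 55553 and 59588, whereas in MP tumor 2 it was the lowest, at 23056. The libraries were polyA selected, and the part of that selection in this difference was not tested.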

How the data were processed

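The authors deposited TPM values, 1 row per gene and 1 column per library, with replicates not pooled. The submitters' processing notes name FastQC 0.11.5, Trimmomatic 0.36, STAR 2.5.3a, featureCounts 1.6.3 and mm10 (GRCm38), whereas the extract protocol names a human build, HTSeq and RPKM. The table was followed, and 96.2% of its rows carry GENCODE M21 coordinates. Libraries were single-end, 76 bp. Depth came from the smallest step of TPM times gene length, of which 100% of values were whole multiples (tolerance 0.01 read). Low values are least precise in the tumors, where a single read per kb equals up to 0.790 TPM. No counting intervals are given. Columns of other samples left unused numbered 0.

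Genes at 1 TPM or more in at least 3 libraries were tested as log2(TPM + 1), which understates changes of low genes, with limma 3.58.1 (trend, robust) in R 4.3.3, 10 MP tumors against 3 WT ovaries. Benjamini-Hochberg adjustment ran over all 17277 genes, with a threshold of 0.05. Shares within a subunit were compared by exact permutation, 2-sided. Other analyses used Python 3.11.15 with pandas 2.3.3, and matplotlib 3.10.9 for figures. The script was tested on simulated data. Alternatives varied pseudocount, filter, scaling, length trend, batch, replicate block, limma options, reads in place of TPM (voom) and single libraries.

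Named genes are the 3 with the largest moderated statistic in each complex, every tissue form or gene copy of a subunit, 9 catalytic or cofactor-binding subunits and any gene at 0 throughout. A further subunit of that rule is counted with the others and not reported here. Genes called in batch 1 alone and the Sdhd to Sdha ratio were named after their values were seen. The genes and lists were chosen with earlier results of these data known. Libraries of 1 group differed by more than sampling noise (chi-square per degree of freedom at least 28.4), so none was counted as a repeat. The ovaries are separate samples in the labels, which do not state that each came from a separate mouse, so p-values measure the spread between these samples.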

Additional observations from a re-analysis of the deposited data

Results flagged for a closer look

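Among 49 values and shares checked in the 10 MP tumors, 7 had a highest or lowest tumor that stood apart from the rest by Dixon's test. Chance would flag about 1 in 20, or 2.45 here, only if the values were normal and independent. TPM and shares are skewed, Cox7b2 and Cox8b are at 0 in most tumors, and a gene can enter by both TPM and share. The count of 7 therefore cannot be set against 2.45. MP tumor 2 was far below the other tumors for Ndufa6 (190.3 TPM, next 425 TPM) and Atp5b (586.5 TPM, next 1243 TPM), and it was the tumor with 55.1% of its TPM in 10 genes. It also held the only tumor read of Cox7b2, 1 read, at a share of 0.0306%, so this value has no precision. MP tumor 1 was far above the others for Cox8b, at 90.05 TPM with the next at 3.18 TPM, and for its share of Cox8a plus Cox8b, at 3.72% with the next at 0.153%. MP tumor 5 stood out for the share of Cox4i2 at 1.63%, next 0.836%, and for that of Cox6b2 at 12.3%, next 5.26%. MP tumor 1 also had the highest sum of striated muscle markers (774 TPM) and MP tumor 5 the highest Acta2 level (1186 TPM) among the tumors, with Myh11, Cnn1 and Actg2 higher in MP tumor 10, and their part was not tested.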

How the results depend on the processing

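With the replicate block, 14 subunit genes were higher and 3 lower (6.29% and 56.7% of all genes). Within batch 1 without it the counts were 18 and 3 (6.44% and 57.3% of all genes). The contrast of the block rests on the batch 1 libraries, because only numbers 1 to 3 occur in both groups. The labels give no link between same-numbered samples, and same-numbered libraries deviated with r of -0.05, 0.02 and -0.04. Counts of higher and lower subunit genes follow, with the shares of all genes in brackets. They were 20 and 4 with batch as a covariate (5.17% and 49.4%) and 18 and 3 within batch 1 (6.44% and 57.3%). Voom on recovered reads gave 12 and 0 (15.8% and 17.6%), and removal of the length trend gave 8 and 1 (10.4% and 10.3%). Quantile normalization gave 6 and 1 (11.0% and 12.1%) and median-of-ratios scaling 3 and 0 (7.37% and 11.0%). Counts of 1 and 0 came with a pseudocount of 0.1 (2.44% and 10.1%). Leaving out 1 library gave 0 to 3 higher and 0 to 1 lower, beside 0.544% to 3.68% and 6.70% to 18.9% of all genes. The cause was not tested. Median log2 fold changes moved with scaling and batch. After median-of-ratios scaling they were 0.94 over all subunit genes and 0.88, 0.81, 1.22, 1.20 and 0.96 in complexes I to V. By voom they were 0.95, and 0.91, 0.81, 1.22, 1.22 and 1.01. With the length trend removed they were 0.71 over all subunit genes, and 0.47, 0.64, 0.93, 0.68 and 0.90 in complexes I to V. After quantile normalization they were 0.39, and 0.36, 0.24, 0.46, 0.52 and 0.38. Within batch 1, with the batch covariate and with the replicate block they were 0.38, and 0.29, -0.081, 1.12, 0.80 and 0.48. Signs of some genes turned, Ndufa1, Cox7a1 and Uqcrb among them. Under median-of-ratios scaling and voom, Ndufa1 was at 0.013 and 0.042, Uqcrb at 0.12 and 0.14, Cox6a1 at 0.49 and 0.49, Cox6b2 at 0.49 and 0.29, Cox8b at 0.29 and 0.55, Ndufa4l2 at 0.33 and 0.33, Ndufs1 at 0.66 and 0.68 and Sdhb at 0.68 and 0.69, and Cox7a1 was at 0.052 under the former. Quantile normalization turned Cox6b2 to 0.75, Cox8b to 0.46, Ndufa4l2 to 0.48, Ndufs1 to 0.39, Sdhb to 0.089, Atp5a1 to -0.074 and Atp5b to -0.090. Without the length trend Cox6b2 was at 0.042, Ndufs1 at 0.88 and Sdhb at 0.45. Within batch 1, with the batch covariate and with the replicate block alike, Sdhc was at -0.19, Cox7a1 at 0.024, Cox8b at 0.98, Ndufs7 at -0.0081, Sdhb at 0.033, Uqcrc1 at -0.72, Atp5a1 at -0.063 and Atp5b at -0.022. Leaving out 1 library gave -0.46 to 0.14 for Cox6b2, -0.65 to 0.070 for Cox8b, -0.12 to 0.068 for Ndufs1, -0.13 to 0.071 for Sdhb and -0.071 to 0.16 for Uqcrfs1. Atp5o stayed above 0 and Cox4i2 below 0 in every setting, and Cox4i2 did not pass with a pseudocount of 0.1, quantile normalization, median-of-ratios scaling or voom. Neither passed without any 1 of the WT ovaries. The difference in the share of Cox4i2 was -2.44 percentage points within batch 1, where 3 against 3 cannot pass the threshold, and -2.53 to -2.02 with 1 library left out. That of Cox6b2 was -2.08 within batch 1, -0.83 as a log2 ratio and -0.40 to 0.96 with 1 library left out, that of Cox8b -0.56 as a log2 ratio and -0.075 to 0.34, that of Atp5g1 3.45 to 4.28 and that of Atp5g3 -7.81 to -6.29, both past the threshold without MP tumor 3. Depth limits genes near 1 TPM, such as Atp5l, Cox8b and Cox6a2.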
